A study of Homo sapiens with 24 samples.

Results

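The genes described here are 33 established transcriptional targets of the tumour suppressor p53, out of the 28277 genes counted in each of 2 RNA-seq tables. They were chosen by name from the p53 pathway, by no rule on their counts but with earlier results of these data known. All 33 were found in both tables. The series compares the high-grade serous ovarian cancer lines PEO1, which is sensitive to cisplatin, and PEO4, which is resistant to it. Both lines were grown from a single patient. The first pair of lines, with 6 libraries, held untreated PEO1 cells that lack functional BRCA2 (PEO1 A, genotype labelled WT) and untreated PEO4 cells (PEO4 A). The second pair, with 18 libraries, held PEO1 cells whose BRCA2 is restored (PEO1 BRCA+, labelled PEO1 B) and PEO4 cells (PEO4 B), each untreated or treated with 5 µM pyridostatin (PDS), a small molecule that binds and stabilizes DNA G-quadruplexes (G4s), for 2 h or 6 h. Each of the 8 conditions had 3 replicates. The labels call them biological without describing separate cultures, so the p-values measure the spread between these libraries, which may in part be technical. The untreated cells of the second pair carry no vehicle label. According to the study, a reversion mutation in PEO4 restores the reading frame of BRCA2. The lines of the first pair thus also differ in BRCA2 status, which cannot be told apart there from other differences between the lines. In the second pair both lines have BRCA2 restored. Each line stands for itself alone, and the PEO1 BRCA+ cells also differ from PEO1 A in whatever else changed when BRCA2 was regained. By the methods of the study, the medium of the first pair alone contained sodium pyruvate.

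p53 is a transcription factor that is kept low by the ubiquitin ligase MDM2 and accumulates when kinases of the DNA damage response act on it. It binds a pair of adjacent decamer half-sites and activates genes that halt the cell cycle, repair DNA, promote apoptosis, adjust metabolism and, through MDM2, limit p53 itself. Counts per gene do not show whether the p53 protein of these lines can bind its sites. Several of these genes also have activators other than p53, such as the stress factor ATF4.

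A search for sequences of the kind that p53 recognises is shown first, because the 33 genes were listed as its targets. Both strands of the genome (GRCh38, the build the counts were made on) were searched within 3 kb of the start of each gene's canonical GENCODE transcript for 2 adjacent copies of the p53 half-site consensus without spacer. The C and the G of each core had to be present, and up to 2 mismatches were allowed at the other positions. Such a sequence lay near 18 of the 33 genes (54.5%), against 786 of 15911 genes tested in the second pair (4.94%). With at most 1 mismatch it lay near 7 (21.2%, against 0.685%), and without mismatch near PLK2 and ZMAT3 (6.06%, against 0.0817%). A match describes letters only, and the list was assembled from known targets. For 12 of the 18 genes, chosen after their values had been seen, the sequence with the fewest mismatches is printed on the gene's strand with the 4-base core of each half-site in capitals. Their place is given relative to the canonical transcript.
CDKN1A, chr6:36676449-36676468, + strand, upstream, 2 mismatches: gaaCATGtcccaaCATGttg
MDM2, chr12:68808923-68808942, + strand, in an intron, 2 mismatches: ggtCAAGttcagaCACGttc
CCNG1, chr5:163437926-163437945, + strand, in an intron, 1 mismatch: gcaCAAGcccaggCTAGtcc
PMAIP1, chr18:59899549-59899568, + strand, upstream, 2 mismatches: gggCTTGtttaccCAAGtct
AEN, chr15:88621306-88621325, + strand, upstream, 2 mismatches: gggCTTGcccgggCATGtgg
EDA2R, chrX:66638713-66638732, - strand, in an intron, 1 mismatch: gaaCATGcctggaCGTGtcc
GDF15, chr19:18385308-18385327, + strand, upstream, 2 mismatches: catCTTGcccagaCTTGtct
BTG2, chr1:203303642-203303661, + strand, upstream, 2 mismatches: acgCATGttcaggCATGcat
DDB2, chr11:47214969-47214988, + strand, across the edge of the first exon, 1 mismatch: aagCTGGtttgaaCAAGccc
BAX, chr19:48955213-48955232, + strand, in an intron, 2 mismatches: gggCAGGcccgggCTTGtcg
PLK2, chr5:58462274-58462293, - strand, upstream, 0 mismatches: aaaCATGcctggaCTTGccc
ZMAT3, chr3:179070188-179070207, - strand, in an intron, 0 mismatches: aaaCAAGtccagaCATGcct

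G4s are the structures that PDS binds. A stretch that could fold into one (4 runs of at least 3 G with loops of 1 to 7 bases, on either strand) was found in the 250 bases before the start of 11 of the 27 genes for which a RefSeq promoter (GRCh38.p14) was at hand, or 40.7%. The share was 31.9% among 12445 promoters of tested genes and 22.6% among all 27305 promoters. The upstream sequences of CDKN1A and BTG2, whose responses to PDS differed between the lines, and of PMAIP1, which rose in both, are printed with these stretches in capitals.
CDKN1A, chr6:36678464-36678713, + strand: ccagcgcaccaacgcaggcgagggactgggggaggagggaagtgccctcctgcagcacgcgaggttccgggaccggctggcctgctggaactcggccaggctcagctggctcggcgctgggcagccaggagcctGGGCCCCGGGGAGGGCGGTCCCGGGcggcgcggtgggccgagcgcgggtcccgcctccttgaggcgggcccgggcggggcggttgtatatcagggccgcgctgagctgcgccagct
BTG2, chr1:203305269-203305518, + strand: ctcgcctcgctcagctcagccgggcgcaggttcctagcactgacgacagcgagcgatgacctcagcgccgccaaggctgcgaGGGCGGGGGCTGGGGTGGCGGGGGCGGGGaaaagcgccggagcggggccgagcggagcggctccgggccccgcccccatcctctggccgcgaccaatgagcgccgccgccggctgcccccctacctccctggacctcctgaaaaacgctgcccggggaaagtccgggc
PMAIP1, chr18:59899746-59899995, + strand: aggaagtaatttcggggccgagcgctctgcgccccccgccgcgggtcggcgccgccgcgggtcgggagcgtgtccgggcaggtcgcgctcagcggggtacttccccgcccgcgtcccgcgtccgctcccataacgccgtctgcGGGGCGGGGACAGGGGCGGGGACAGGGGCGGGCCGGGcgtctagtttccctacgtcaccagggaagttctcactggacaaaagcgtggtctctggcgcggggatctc

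Totals lay between 32528913 and 63882077 counts per library in the first pair. In the second pair they lay between 18699929 and 22375644 in untreated and between 33260167 and 43713947 in treated libraries, so depth differed with treatment. Counts on ribosomal RNA genes made up 0.217 to 0.474% of untreated and 0.0164 to 0.0369% of treated libraries of that pair. Neither range overlapped between untreated and treated libraries. A comparison of these libraries therefore cannot tell either difference, or the preparation behind it, apart from PDS, and its part in the results was not tested. Of 10 markers of ovarian carcinoma epithelium, 9 exceeded 10 CPM (counts scaled to the size of the library) in every library. Of 10 fibroblast, endothelial and leukocyte markers, 5 stayed below 1 CPM throughout and CD3E, a T cell marker, had no count. The sum of that second list was 17.6 to 33.5 CPM in untreated PEO4 of the second pair, 11.7 to 13.4 after 2 h and 4.25 to 5.71 after 6 h, while in PEO1 BRCA+ it was 9.75 to 13.4, 8.35 to 9.28 and 7.31 to 8.68. In the first pair it was 38.8 to 43.2 in PEO1 A and 7.43 to 12.9 in PEO4 A. Its part in the changes of PEO4 and in the differences between the lines was not tested.

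Genes were compared with edgeR's quasi-likelihood test on the whole table, with Benjamini-Hochberg adjustment. A gene is said to have risen, fallen or differed at an adjusted p under 0.05, and to be called when its log2 fold change also exceeded 1 in size. Levels are CPM scaled by TMM within a table, so levels of the 2 pairs were not tested against each other. In bulk RNA, fewer cells expressing a gene and less RNA per cell cannot be told apart.

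Before treatment, p53 targets differed between PEO4 and PEO1 in both directions in both pairs, and the share called was near that of all genes. In the first pair 9 of the 33 genes were called, 4 higher and 5 lower in PEO4, where 25.8% of the 15882 genes tested were called. By adjusted p, 12 were higher, 18 lower and 3 did not pass, against 30.1% of all genes higher and 31.6% lower. The median log2 difference was -0.38, and -0.01 over all genes. In the second pair 32 genes had enough counts and 8 were called, 5 higher and 3 lower in PEO4 (24.8% of 17020 genes). By adjusted p, 12 were higher, 11 lower and 9 did not pass (34% and 34.6% of all genes), with a median of 0.00 for both. Of the 32 genes tested in both pairs, 7 passed as higher in PEO4 in each (21.9%), 9 as lower in each (28.1%) and 6 in opposite directions (18.8%), against 20.7%, 21.7% and 6% of the 15396 genes tested in both. The 6 were CCNG1, EDA2R, PERP, TNFRSF10A, TNFRSF10B and XPC.

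CDKN1A encodes p21, the inhibitor of cyclin-dependent kinases that carries out the p53 cell cycle arrest (chr6:36676460-36687337, + strand, 3 exons). It was at 5.56, 4.86 and 4.15 CPM in PEO1 A and at 10.6, 14.4 and 12.3 in PEO4 A. In the second pair it was at 9.78, 8.22 and 8.65 in PEO1 BRCA+ and at 30.6, 20.9 and 25.4 in PEO4. Every PEO4 library thus lay above every PEO1 library of its pair, and the log2 differences were 1.35 (SE 0.16, edgeR adjusted p = 1.2e-05) and 1.53 (SE 0.14, edgeR adjusted p = 9.3e-09). TP53INP1, whose protein takes part in p53-dependent cell death and autophagy (chr8:94925972-94949378, - strand, 4 exons), was higher in PEO4 by 1.76 and 2.78 on the log2 scale. FDXR, the mitochondrial ferredoxin reductase, was at 40.8, 38.4 and 39.7 CPM in PEO1 A and 125, 105 and 126 in PEO4 A. In the second pair it was at 21.5, 25.0 and 25.9 in PEO1 BRCA+ and 83.3, 79.0 and 92.9 in PEO4, a log2 difference of 1.82 (SE 0.080).

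The genes lower in PEO4 in both pairs by the largest steps serve metabolism and autophagy. TIGAR, which lowers glycolytic flux, was at 28, 37.4 and 39.6 CPM in PEO1 A and 10.4, 10.5 and 7.90 in PEO4 A, and the difference in the second pair was -1.42 (SE 0.071). DRAM1, a lysosomal membrane protein of autophagy, was lower in PEO4 by log2 differences of -1.53 and -1.57. EDA2R, a death receptor of the TNF receptor family, went opposite ways. It was lower in PEO4 A than in PEO1 A, at 0.709, 0.369 and 0.429 against 1.34, 1.44 and 0.939 CPM, a log2 difference of -1.24 (SE 0.37). In the second pair it had 0, 1 and 1 counts in PEO1 BRCA+ and 6, 15 and 15 in PEO4, at least 4.27-fold higher in PEO4 when PEO1 is set to 3 counts per library. TNFRSF10A, which encodes a receptor of the death ligand TRAIL, was higher in PEO4 by 0.43 in the first pair and lower by a log2 difference of -1.42 in the second.

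Some genes were called in a single pair. The values that follow were chosen after they had been seen. SPATA18, a mitochondrial quality control gene, had 25, 18 and 34 counts in PEO1 A and none in PEO4 A, at least 7.36-fold lower, and it had too few counts to be tested in the second pair. PPM1D, the phosphatase that switches off p53 signalling, was higher in PEO4 by 0.69 in the first and 1.13 in the second pair. FAS, the receptor of FAS ligand, was higher by 1.10 in the first pair, and its value in the second was 0.05 (SE 0.080), which did not pass. Exons of FAS overlap those of STAMBPL1 on the same strand and those of ACTA2 on the other. GADD45A, a growth arrest gene, was lower by log2 differences of -1.08 and -0.32.

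**Figure D1:**
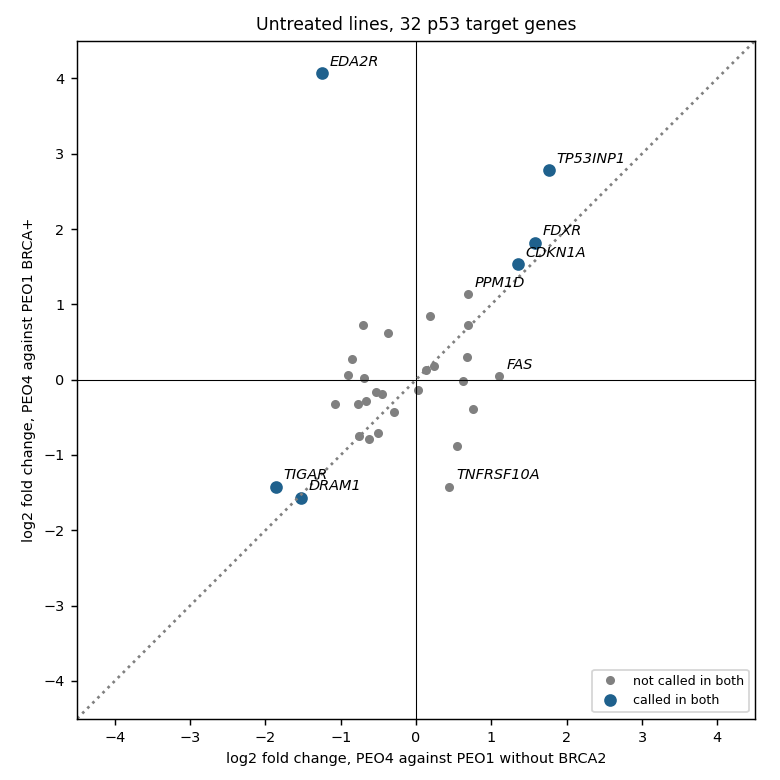
Log2 fold change of PEO4 against PEO1 in the first pair (x axis) and in the second pair (y axis) for the 32 p53 target genes tested in both, each point 1 gene, with the line of equal values dotted. CDKN1A, TP53INP1 and FDXR lie at the upper right and TIGAR and DRAM1 at the lower left, while EDA2R was -1.24 in the first pair and its second value is a fitted one that stands for at least 4.27-fold.

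In PEO1 BRCA+ cells the p53 targets changed by small steps after PDS, with more up than down under TMM scaling and an even balance under library totals. After 2 h, 2 of the 32 genes were called, CDKN1A up and TP53INP1 down, where 7.57% of all genes were called. By adjusted p, 11 rose, 5 fell and 16 did not pass, against 26.4% and 26.2% of all genes. After 6 h, 3 were called, CDKN1A and EDA2R up and TP53INP1 down (8.13% of all genes), and 15 rose, 5 fell and 12 did not pass (27% and 26%). The median log2 fold change was 0.08 at 2 h and 0.18 at 6 h, or 0.07 and 0.16 with EDA2R at its bound, and -0.03 over all genes at each time. Without replicate 2 of untreated cells or replicate 1 at 2 h, 1 gene was called at 2 h, and without replicate 3 at 6 h 1 gene was called at 6 h. The balance of directions depended on the scaling. With library totals in place of TMM, 8 rose and 9 fell at 2 h and 10 rose and 11 fell at 6 h. With upper-quartile scaling the split was 9 to 8 and 13 to 10. Library totals shifted the median of all genes to -0.17 at both times. Over both lines and times, the verdict by adjusted p changed under library totals for 27 of 128 values, the rise of EDA2R at 6 h among them, and for 0 values from a rise to a fall.

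In PEO4 cells the p53 targets moved in both directions after the same treatment, with no larger a share called than among all genes. After 2 h, 5 of 32 genes were called, with CCNG1, PMAIP1, EDA2R and GDF15 up and TP53INP1 down, where 17.4% of all genes were called. By adjusted p, 17 rose, 9 fell and 6 did not pass, against 33.3% and 32% of all genes, and the median was 0.21 against 0.00. With library totals 14 rose and 12 fell. After 6 h, 5 were called, with AEN and TNFRSF10A up and BBC3, TP53INP1 and GDF15 down (22.6% of all genes), and 11 rose, 13 fell and 8 did not pass (34.6% and 35.2%), with a median of -0.05 against -0.03. Without replicate 2 of untreated PEO4, 9 genes were called at 6 h instead of 5, with PMAIP1, BAX, BTG2 and CYFIP2 passing a log2 fold change of 1 in size.

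**Figure D2:**
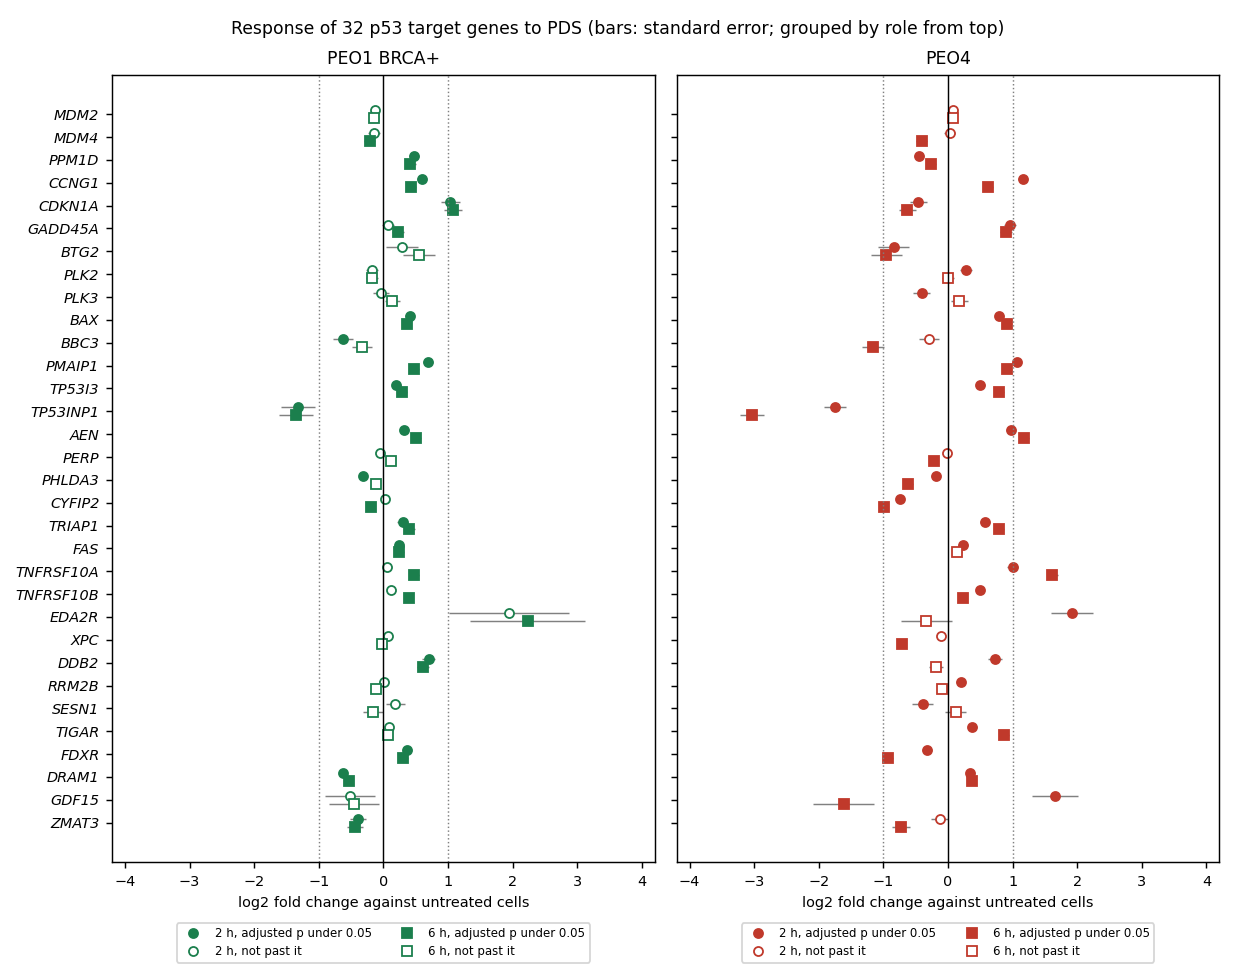
Log2 fold change after 2 h (circles) and 6 h (squares) of PDS against untreated cells for each of 32 p53 target genes in PEO1 BRCA+ (left) and PEO4 (right), with bars of 1 standard error, filled where the adjusted p was under 0.05 and with dotted lines at -1 and 1. TP53INP1 lies furthest to the left in both lines, at -1.35 in PEO1 BRCA+ and -3.03 in PEO4 after 6 h, and CDKN1A lies to the right in PEO1 BRCA+ and to the left in PEO4.

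Among the genes that feed back on p53, MDM2 (chr12:68808177-68845544, + strand, 11 exons) did not pass in either line under TMM scaling. It was at 65.0, 62.5 and 60.6 CPM in untreated PEO1 BRCA+, 55.7, 57.6 and 59.0 after 2 h and 57.7, 53.4 and 58.3 after 6 h. In PEO4 it was at 60.7, 50.5 and 59.2, then 60.2, 56.1 and 62.6, then 62.2, 60.3 and 57.5. The libraries of PEO4 overlapped between all times, and the log2 fold changes there were 0.07 (SE 0.065) and 0.08 (SE 0.065). In PEO1 BRCA+ the treated libraries lay below the untreated ones, by log2 fold changes of -0.13 (SE 0.065, edgeR adjusted p = 0.11) and -0.15 (SE 0.065, edgeR adjusted p = 0.053). They passed as a fall under library totals, at -0.27 and -0.30, and under upper-quartile scaling, at -0.21 and -0.24, and at 6 h also with DESeq2 size factors, at -0.16. An exon of the carboxypeptidase gene CPM overlaps MDM2 on the other strand, and whether strand was used in counting is not given.

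CCNG1, which encodes cyclin G1, a partner of the phosphatase that acts on MDM2, rose in both lines (chr5:163437569-163446151, + strand, 7 exons). It went from 44.8, 52.2 and 37.8 CPM to 66.9, 68.5 and 69.2 and then 59.3, 62.1 and 60.8 in PEO1 BRCA+. In PEO4 it went from 68.6, 67.2 and 71.3 to 152, 158 and 152 and then 109, 110 and 100. No treated library overlapped an untreated one of its line, and the log2 fold change in PEO4 was 1.16 (SE 0.072, edgeR adjusted p = 1.0e-12) at 2 h and 0.62 at 6 h, against 0.60 and 0.43 in PEO1 BRCA+. PPM1D moved in opposite directions, by 0.47 and 0.42 in PEO1 BRCA+ and by -0.45 and -0.26 in PEO4.

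Of the arrest genes, CDKN1A rose in PEO1 BRCA+ and fell in PEO4. In PEO1 BRCA+ it went from 9.78, 8.22 and 8.65 CPM to 19.5, 17.9 and 17.1 after 2 h and 15.2, 18.2 and 22.8 after 6 h. In PEO4 it went from 30.6, 20.9 and 25.4 to 17.9, 20.2 and 17.9 and then 16.3, 17.6 and 16. Treated and untreated libraries did not overlap in either line, and after treatment the 2 lines were, without a test between them, at like levels, with 15.2 to 22.8 CPM in PEO1 BRCA+ and 16 to 20.2 in PEO4. The log2 fold changes were 1.04 (SE 0.14, edgeR adjusted p = 5.1e-06) and 1.08 (SE 0.14, edgeR adjusted p = 2.9e-06) in PEO1 BRCA+. In PEO4 they were -0.46 (SE 0.13, edgeR adjusted p = 0.0038) and -0.63 (SE 0.13, edgeR adjusted p = 2.4e-04). The calls in PEO1 BRCA+ sit at the fold limit, with a log2 fold change of 0.89 at 2 h and 0.93 at 6 h under library totals. They were also lost without replicate 2 of untreated PEO1 BRCA+ (0.992) or replicate 1 at 2 h (0.995), and without replicate 3 at 6 h (0.92). Exons of DINOL, a transcript of the other strand, overlap CDKN1A. GADD45A, named here after its values were seen, rose in PEO4 by 0.95 and 0.90, and in PEO1 BRCA+ it was at 0.07 (SE 0.092), which did not pass, and 0.23, which did not pass under the other 3 scalings. BTG2, an antiproliferative gene, fell in PEO4 by log2 fold changes of -0.84 and -0.96 from 14.6, 8.29 and 5.76 CPM, while in PEO1 BRCA+ it was at 0.28 (SE 0.25) and 0.54 (SE 0.25), neither past the test.

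The genes of the apoptotic machinery did not move as a block. PMAIP1 encodes NOXA, a BH3-only protein that opposes MCL1 (chr18:59899996-59904305, + strand, 2 exons). It rose from 69.3, 70.5 and 63.9 CPM to 110, 113 and 106 and then 93.6, 95.4 and 92.9 in PEO1 BRCA+. In PEO4 it rose from 77.1, 83.4 and 61.5 to 155, 153 and 155 and then 133, 134 and 149. Every treated library lay above every untreated one in both lines, with log2 fold changes of 0.69 (SE 0.074) and 0.47 (SE 0.075) in PEO1 BRCA+ and 1.06 (SE 0.074) and 0.91 (SE 0.074) in PEO4. The call in PEO4 at 2 h was lost under library totals (0.94) and without replicate 3 of untreated PEO4 (0.95), where the log2 fold change fell under 1.

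BBC3 encodes PUMA, another BH3-only protein (chr19:47220822-47232766, - strand, 4 exons), and it went down. It was at 5.94, 9.09 and 6.63 CPM untreated, 4.53, 4.99 and 4.53 after 2 h and 5.80, 5.76 and 5.72 after 6 h in PEO1 BRCA+. In PEO4 it was at 5.97, 5.42 and 6.45, then 4.53, 6.03 and 4.01, then 2.38, 2.59 and 3.02. It thus fell at 2 h in PEO1 BRCA+ by a log2 fold change of -0.63 (SE 0.15, edgeR adjusted p = 0.0013) and at 6 h in PEO4 by -1.16 (SE 0.17, edgeR adjusted p = 1.0e-06). The other 2 contrasts, -0.33 (SE 0.15) and -0.30 (SE 0.15), did not pass under TMM and did under library totals, at -0.48 and -0.43. Exons of the microRNA genes MIR3191 and MIR3190 lie within it.

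TP53INP1 fell in both lines. In PEO1 BRCA+ it was at 2.25, 2.31 and 1.62 CPM, then 0.504, 1.09 and 0.835, then 1.0, 0.667 and 0.734. In PEO4 it was at 15.5, 10.6 and 16.4, then 3.86, 4.98 and 3.89, then 1.91, 1.77 and 1.5. No treated library reached an untreated one of its line, and in PEO4 the 6 h libraries also lay below those of 2 h. The log2 fold changes were -1.32 (SE 0.26) and -1.35 (SE 0.26) in PEO1 BRCA+ and -1.75 (SE 0.17) and -3.03 (SE 0.19) in PEO4. Exons of NDUFAF6 overlap it on the other strand.

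AEN, an exonuclease that degrades DNA during apoptosis (chr15:88621337-88632281, + strand, 4 exons), rose in both lines. It went from 39.2, 35.0 and 40.4 CPM to 47.4, 49.5 and 46.3 and then 54.5, 56.5 and 51.4 in PEO1 BRCA+. In PEO4 it went from 24.9, 24.3 and 20.6 to 48.8, 42.1 and 46.5 and then 50.8, 53.3 and 53.2. Lower than PEO1 BRCA+ before treatment, PEO4 reached the range of PEO1 BRCA+ after it, without a test between the treated lines. The log2 fold changes were 0.98 (SE 0.075) and 1.17 (SE 0.075) in PEO4, against 0.32 (SE 0.072) and 0.50 (SE 0.072) in PEO1 BRCA+. BAX, which permeabilises the mitochondrial outer membrane, rose by 0.40 and 0.36 in PEO1 BRCA+ and by 0.79 and 0.91 in PEO4. TP53I3 rose by 0.50 and 0.79 in PEO4 and by 0.20 and 0.29 in PEO1 BRCA+, where neither passed under library totals. CYFIP2 fell in PEO4 by log2 fold changes of -0.74 and -0.99.

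All 4 death receptors rose in PEO4 at 2 h, and all 4 rose in PEO1 BRCA+ at 6 h, with FAS at 0.23 and 0.24, but under library totals FAS passed in neither and EDA2R did not pass in the latter. Of all genes, 33.3% and 27% rose in these comparisons. TNFRSF10A (chr8:23190452-23225102, - strand, 10 exons) was at 59.3, 59.7 and 68.1 CPM untreated, 65.0, 63.8 and 66.4 after 2 h and 88.5, 83.2 and 88.2 after 6 h in PEO1 BRCA+. In PEO4 it was at 21.8, 25.6 and 22.6, then 49.3, 39.1 and 51.2, then 71.7, 72.3 and 70.4. The 3 times did not overlap in PEO4, where the log2 fold changes were 1.0 (SE 0.083) and 1.62 (SE 0.083). In PEO1 BRCA+ they were 0.06 (SE 0.077), which did not pass, and 0.47 (SE 0.077). TNFRSF10B, the second TRAIL receptor, rose by 0.49 and 0.23 in PEO4 and by 0.40 at 6 h in PEO1 BRCA+. Under library totals and upper-quartile scaling its rise at 6 h in PEO4 no longer passed.

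EDA2R (chrX:66595637-66639298, - strand, 7 exons) rose for a short time in PEO4. Its counts were 6, 15 and 15 untreated, 86, 65 and 89 after 2 h and 20, 15 and 13 after 6 h, or 0.260, 0.753 and 0.691, then 2.39, 1.84 and 2.14, then 0.477, 0.458 and 0.389 CPM. The 2 h libraries stood above all others, with a log2 fold change of 1.92 (SE 0.32, edgeR adjusted p = 1.2e-05) against untreated cells and of -2.25 (SE 0.30) from 2 h to 6 h. In PEO1 BRCA+ its counts were 0, 1 and 1, then 3, 3 and 7, then 8, 2 and 6. Set to 3 counts per library, the untreated level makes the 6 h level at least 1.14-fold higher, and the call there was lost in 7 of 13 alternatives, with an edgeR or DESeq2 adjusted p of 0.017 to 0.13 over them. Each of the 5 single libraries of that contrast whose removal ended the call left an edgeR adjusted p between 0.0605 and 0.13, and those were every untreated replicate and replicates 1 and 3 at 6 h.

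In the group of DNA repair and nucleotide supply, DDB2, the damage sensor of nucleotide excision repair, rose at 2 h in both lines, by 0.70 in PEO1 BRCA+ and 0.73 in PEO4. At 6 h it was still up in PEO1 BRCA+ (0.61), and in PEO4 its value was -0.19 (SE 0.11), which did not pass, although it did as a fall under library totals (-0.35). XPC, which recognises distorted DNA, fell at 6 h in PEO4 by a log2 fold change of -0.72. RRM2B, a subunit of ribonucleotide reductase, rose by 0.19 at 2 h in PEO4, which did not pass under library totals, and did not pass in the other 3 comparisons under TMM.

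Of the metabolic genes, FDXR and DRAM1 moved in opposite directions in the 2 lines at both times. FDXR rose by 0.37 and 0.30 in PEO1 BRCA+ and fell by log2 fold changes of -0.33 and -0.93 in PEO4, although its rise at 6 h in PEO1 BRCA+ did not pass under library totals. DRAM1 fell by -0.62 and -0.53 in PEO1 BRCA+ and rose by 0.34 and 0.36 in PEO4. TIGAR rose in PEO4 by 0.38 and 0.87 and in PEO1 BRCA+ was at 0.09 (SE 0.064) and 0.07 (SE 0.064). In PEO4 each of these 3 genes moved towards the untreated level of PEO1 BRCA+. The untreated PEO4 libraries enter both the starting gap and the response, so spread in them alone can shift values this way. Not all p53 targets did so, as CCNG1 moved away from that level, and the pattern was not tested.

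GDF15, a secreted stress cytokine (chr19:18374731-18389176, + strand, 2 exons), rose and then fell in PEO4. It was at 1.17, 0.753 and 2.49 CPM untreated, 4.03, 7.28 and 2.78 after 2 h and 0.477, 0.275 and 0.689 after 6 h. In PEO1 BRCA+ it was at 1.63, 2.15 and 2.02, then 1.48, 1.27 and 1.34, then 1.33, 1.58 and 1.35. The 3 times did not overlap in PEO4, though the spread was wide, and the log2 fold changes were 1.66 (SE 0.36, edgeR adjusted p = 5.6e-04) and -1.61 (SE 0.47, edgeR adjusted p = 0.0057). From 2 h to 6 h it fell by a log2 fold change of -3.27 (SE 0.39). Without replicate 3 of untreated PEO4 the fall at 6 h was -1.01 with an edgeR adjusted p of 0.078, in a range of 1.9e-04 to 0.078 over 14 alternatives. ZMAT3, an RNA-binding protein, fell by -0.39 and -0.44 in PEO1 BRCA+ and by -0.73 at 6 h in PEO4.

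**Figure D3:**
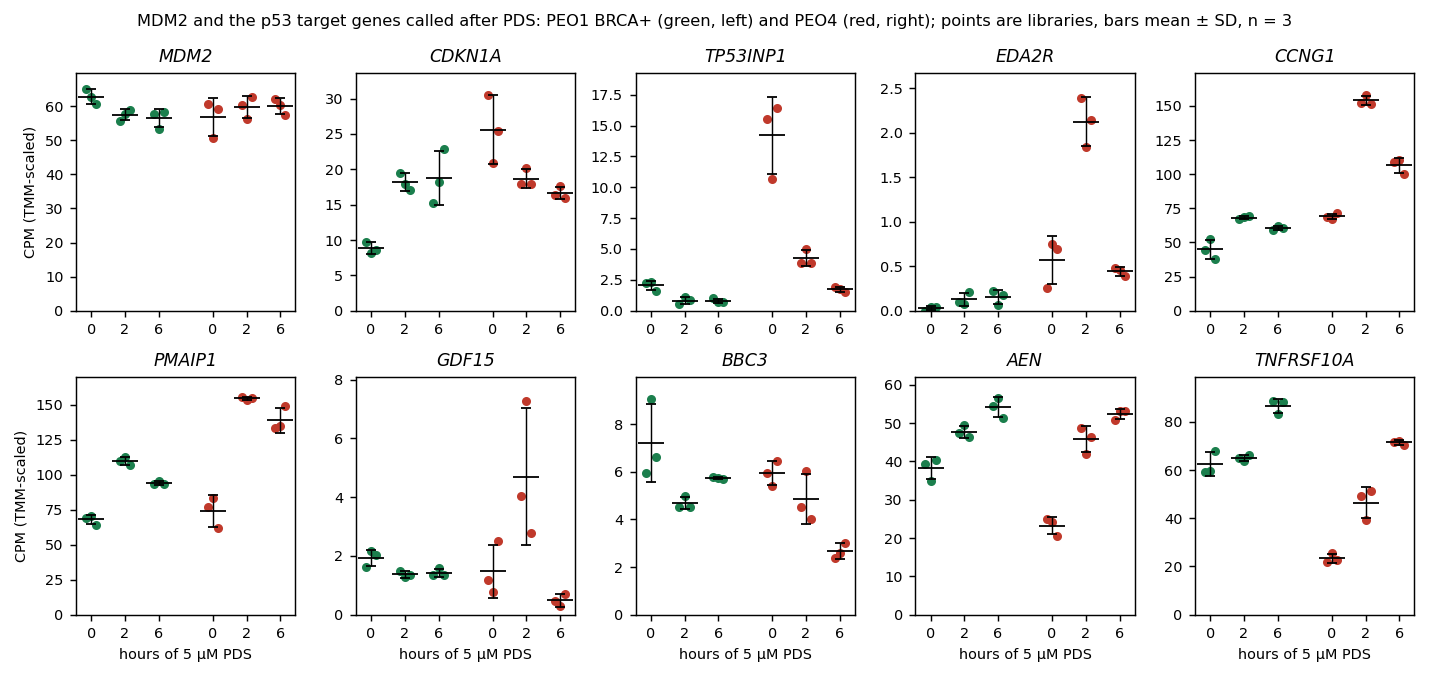
CPM scaled by TMM (y axis, from 0) of MDM2 and the 9 genes called after PDS in each library of PEO1 BRCA+ (green) and PEO4 (red) at 0, 2 and 6 h of 5 µM PDS (x axis), with bars at the mean ± SD of 3 libraries. CDKN1A starts at 8.22 to 9.78 in PEO1 BRCA+ and at 20.9 to 30.6 in PEO4 and lies between 15.2 and 22.8 in every treated library, and EDA2R and GDF15 peak at 2 h in PEO4.

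Between 2 h and 6 h few of the genes passed in PEO1 BRCA+, while 24 did in PEO4. In PEO1 BRCA+, 0 of 32 genes were called by edgeR and 0 by DESeq2, where 0.170% of all genes were called by edgeR, and 9 had an unadjusted p under 0.05. By adjusted p, 2 rose (TNFRSF10A and TNFRSF10B) and 1 fell (CYFIP2), against 3.96% and 2.98% of all genes. In PEO4, 3 were called, TP53INP1, EDA2R and GDF15, and all fell, where 12% of all genes were called. By adjusted p, 8 rose and 16 fell (28.9% and 31.3%), and with upper-quartile scaling 5 rose and 17 fell.

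The response of PEO4 was set against that of PEO1 BRCA+ with an interaction term. At 2 h, 3 of 32 genes were called (11% of all genes), with GDF15 higher in the response of PEO4 and CDKN1A and BTG2 lower. By adjusted p, 12 were higher and 6 lower, against 19.3% and 18% of all genes. At 6 h, 6 were called (14.8% of all genes), with TNFRSF10A higher and CDKN1A, BTG2, TP53INP1, EDA2R and FDXR lower, and by adjusted p 10 were higher and 12 lower (24.4% and 23%). The difference of CDKN1A was -1.50 (SE 0.19, edgeR adjusted p = 4.5e-06) at 2 h and -1.71 (SE 0.19, edgeR adjusted p = 6.4e-07) at 6 h, and it was called under all 20 alternatives at each time. That of MDM2 was 0.20 (SE 0.092), which did not pass, and 0.23 (SE 0.092, edgeR adjusted p = 0.043). Without replicate 2 of untreated PEO4, 6 genes were called at 2 h instead of 3, with DRAM1, PPM1D and TNFRSF10A passing the fold limit.

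**Figure D4:**
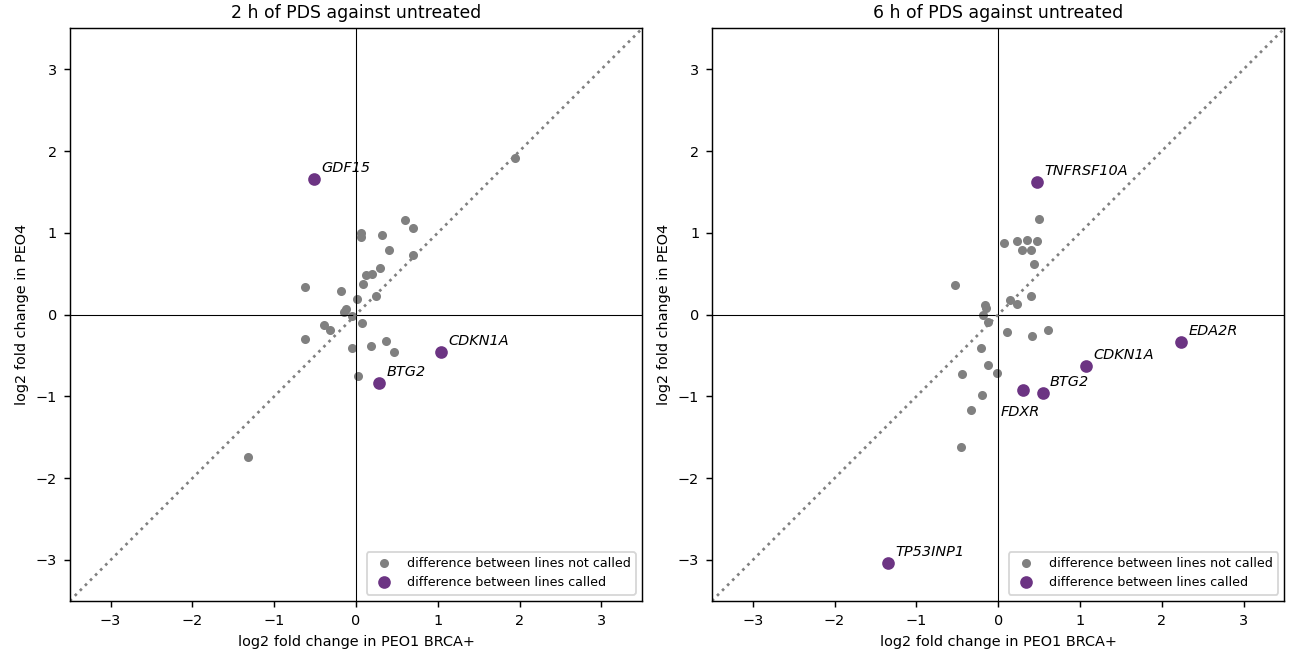
Log2 fold change after PDS in PEO1 BRCA+ (x axis) and in PEO4 (y axis) at 2 h (left) and 6 h (right) for 32 p53 target genes, with genes whose difference between the lines was called in purple and the line of equal response dotted. CDKN1A lies below the dotted line at both times, at 1.04 and -0.46 and then 1.08 and -0.63, and EDA2R in PEO1 BRCA+ is a fitted value from a group of at most 1 count.

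The genes that passed in the same direction in both lines at 2 h were AEN, BAX, CCNG1, DDB2, FAS, PMAIP1, TP53I3 and TRIAP1, all 8 up (25% of 32 genes, against 18.6% of all genes tested), and PHLDA3 and TP53INP1, both down (6.25%, against 16%). At 6 h 9 rose in both lines (28.1%, against 19.5%) and 4 fell in both (12.5%, against 16%). Opposite directions were seen for 4 genes at each time (12.5%), against 5.21% of all genes at 2 h and 5.76% at 6 h. The 2 lines share no library, but in each line both times are compared with the same untreated libraries. With library totals 5 rose and 4 fell in both lines at 2 h, and 6 rose and 8 fell at 6 h, and with upper-quartile scaling 6 rose and 2 fell at 2 h and 7 rose and 7 fell at 6 h. AEN, BAX, CCNG1 and PMAIP1 rose in both lines at each time under all 4 scalings. CDKN1A, DRAM1 and PPM1D moved in opposite directions at both times under all 4 scalings.

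Among 21 further p53 targets, 19 were tested. After PDS in PEO1 BRCA+, 0 were called by edgeR and 0 by DESeq2 at either time, with an unadjusted p under 0.05 for 11 at each time. By adjusted p, 5 rose and 6 fell at 2 h (26.3% and 31.6%, against 26.4% and 26.2% of all genes), and 4 rose and 7 fell at 6 h (21.1% and 36.8%, against 27% and 26%). In PEO4, 6 rose and 10 fell at 2 h (31.6% and 52.6%, against 33.3% and 32%) and 7 rose and 8 fell at 6 h (36.8% and 42.1%, against 34.6% and 35.2%). CD82, a tetraspanin that restrains metastasis, fell in PEO4 from 38.2, 27.0 and 38.5 CPM to 7.92, 8.55 and 7.59 and then 2.89, 2.53 and 3.20, by log2 fold changes of -2.11 (SE 0.12) and -3.59 (SE 0.13). GLS2, the mitochondrial glutaminase, fell in PEO4 by -0.54 (SE 0.18) and -1.58 (SE 0.20). In PEO1 BRCA+ it fell by -0.75 (SE 0.19) and -0.95 (SE 0.19), and at 6 h it was called there under library totals (-1.10), under upper-quartile scaling (-1.04) and without replicate 2 at 6 h (-1.08).

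Of 23 members of the p53 family and its regulators, 22 were tested, and the remaining gene, CDKN2A, had no count in any library. TP63, a p53 paralogue that binds similar sites, had 107, 100 and 140 counts in untreated PEO4, 7, 3 and 6 after 2 h and 7, 1 and 1 after 6 h. In PEO1 BRCA+ it stayed between 131 and 284 counts, or 5.75 to 7.88 CPM, at all times. The difference between the responses was -5.22 (SE 0.32) at 2 h and -6.12 (SE 0.35) at 6 h, and in the first pair TP63 was at 0.107 to 0.526 CPM in PEO1 A and 4.11 to 6.92 in PEO4 A. TP73, the other paralogue, fell in PEO4 at 2 h by a log2 fold change of -1.59 (SE 0.43). HIPK2, a kinase that phosphorylates p53, was at 160 to 181 CPM in untreated PEO1 BRCA+ and fell by -0.77 and -1.14, while in PEO4 it rose from 16.2, 24.1 and 18.8 CPM to 86.9, 76.9 and 96.3 and then 144, 132 and 130.

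Genes that p53 represses through p21 and the DREAM complex, such as the mitotic cyclins and kinases, were 12. In PEO1 BRCA+ 11 of the 12 rose at 2 h and 5 rose and 1 fell at 6 h, and in PEO4 11 rose at each time, where 26.4%, 27%, 33.3% and 34.6% of all genes rose, with 0 called by edgeR and 0 by DESeq2 in all 4 comparisons. Between 6 and 11 of them had an unadjusted p under 0.05. The medians were 0.40, 0.12, 0.35 and 0.50. With library totals 9, 4, 7 and 8 rose, and the median at 6 h in PEO1 BRCA+ was -0.03.

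Per kilobase of canonical transcript, the 33 genes spanned a wide range of levels. PLK2, a polo-like kinase, and BAX held the first 2 places in each of the 8 conditions. PLK2 was at 158.5 and 117.2 CPM per kb in untreated PEO1 BRCA+ and PEO4, and BAX at 110.6 and 97.1. BAX passed PLK2 in every treated condition, with 146.4 against 139.6 CPM per kb at 2 h in PEO1 BRCA+ and 182.0 against 116.8 at 6 h in PEO4. At 6 h in PEO1 BRCA+ the values were close, at 141.8 and 139.9, and the order was not tested. It rests on canonical lengths of 795 bases for BAX and 2786 for PLK2, while the exons counted are not known. In CPM not divided by length PLK2 lay above BAX, at 388.9 against 116.4 at 2 h in PEO1 BRCA+. SPATA18 was last in 7 conditions, at no more than 0.124 CPM per kb in any, and EDA2R was last in untreated PEO1 BRCA+ at 0.008.

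**Figure D5:**
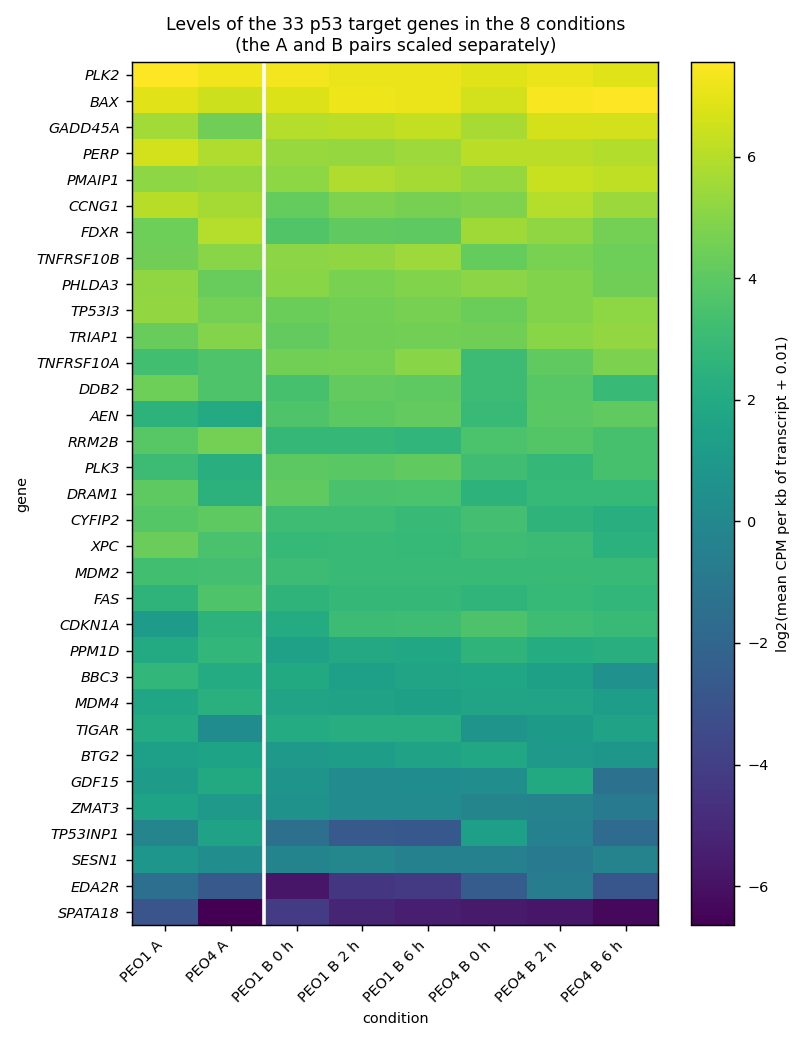
Mean level of each of the 33 p53 target genes (rows, ordered from high to low) in the 8 conditions (columns), as log2 of mean CPM per kb of canonical transcript plus a small constant, with the first pair left of the white line. PLK2 and BAX are brightest throughout, and TP53INP1 darkens after PDS in both lines of the second pair.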

How the data were processed

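Poly(A) RNA from 24 libraries was analysed. Per the labels, the authors checked reads with FastQC, trimmed them with fastp, aligned them to hg38 with STAR and counted them with featureCounts, and they deposited raw counts per gene without normalization. The gene annotation and the strand setting are not given in the sources used here, so overlapping genes are uncertain. Besides the overlaps given above, exons of TP53I3, CYFIP2 and TNFRSF10B overlap FAM228B, ADAM19 and RHOBTB2, in that order, on the other strand. Lines without a readable gene row (2 in the table of 6 libraries, 1 in that of 18) were left out, which gave 28277 genes in each, and all columns of values were used.

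Counts were tested with edgeR 4.0.16 in R 4.3.3. Genes were filtered by filterByExpr (minimum count 10, minimum total 15), scaled by TMM and fitted with a robust quasi-likelihood model with 1 mean per condition over all libraries of a table. p-values were adjusted by Benjamini-Hochberg over all genes tested. A call needed an adjusted p below 0.05 together with a log2 fold change beyond 1 in either direction. Standard errors are the log2 fold change over the root of its F value. If no library of a group exceeded 3 counts, its level was set to 3 counts per library and the fold is a lower bound. Replicates differed by more than sampling noise. The scripts were tested on simulated data, where 200 of 200 changed genes were recovered among 15702 genes for the untreated comparison of the first pair (0 false calls), and 200 of 200 for 2 h of PDS in PEO4 among 16583 genes (2 false calls). Every changed gene had a true log2 change of 2 in size and was not low in counts, and all genes shared a common dispersion. Recovery of smaller changes, or of genes with few counts, was therefore not tested.

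The 33 genes, the other lists and the tests were chosen with earlier results of these data known. Genes named with values are those called after PDS or in both untreated comparisons, MDM2, and the 3 called genes of each other list with the largest fold change after PDS. Some genes that this rule names are not reported here. BTG2 is named for the difference between the lines. Outside the rule, BAX, TP53I3, CYFIP2, TNFRSF10B, XPC, DDB2, RRM2B, ZMAT3, PPM1D, FAS, GADD45A, SPATA18 and CDKN2A were chosen after their values were seen. Positions and lengths come from GENCODE release 44 (GRCh38) and promoters from RefSeq.

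Alternatives were other scalings (library totals, upper quartile, DESeq2 size factors), DESeq2 1.42.0, other filters, a fit of only the groups compared, a replicate block, adjusted p alone and each library left out.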

Additional observations from a re-analysis of the deposited data

Results flagged for a closer look

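9 results were set apart because the response to PDS differed between PEO4 and PEO1 BRCA+ in the interaction term of the edgeR fit, with a log2 difference beyond 1 in size and an adjusted p below 0.05 (Benjamini-Hochberg). All values are the log2 response of PEO4 minus that of PEO1 BRCA+, with 3 libraries per condition.

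At 2 h the difference was -1.50 for CDKN1A, which rose in PEO1 BRCA+ and fell in PEO4 with no overlap between treated and untreated libraries in either line. It was -1.12 for BTG2, where untreated PEO4 libraries spread from 5.76 to 14.6 CPM, and -0.67 without replicate 1 of untreated PEO4. It was 2.17 for GDF15, which rose at 2 h in PEO4 alone by adjusted p.

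At 6 h the difference was -1.71 for CDKN1A, -1.50 for BTG2 and -1.23 for FDXR, and the latter rose in PEO1 BRCA+ and fell in PEO4. It was -1.68 for TP53INP1, which fell in both lines, and 1.14 for TNFRSF10A, which rose in both. For EDA2R it was -2.57, a fitted value that rests on at most 1 count per untreated PEO1 BRCA+ library, and the call was lost in 7 of 20 alternatives.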

How the results depend on the processing

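Leaving out 1 library at a time, the number of p53 targets called ran from 8 to 10 between the untreated lines of the first pair and from 8 to 9 in the second. It ran from 1 to 2 at 2 h and 1 to 3 at 6 h in PEO1 BRCA+, from 5 to 7 and 5 to 9 in PEO4, from 2 to 6 and 5 to 6 for the difference between the lines, and was 0 and 3 throughout from 2 h to 6 h. By adjusted p alone the counts were 30, 23, 16, 20, 26, 24, 3 (PEO1 BRCA+ from 2 h to 6 h), 24 (PEO4), 18 and 22. Under library totals they were 1 at 2 h and 1 at 6 h in PEO1 BRCA+ and 8 at 6 h in PEO4, and upper-quartile scaling gave 1 at 2 h in PEO1 BRCA+ and 8 at 6 h in PEO4. Of 71 calls of genes that the naming rule covers, 24 of 522 values with a library left out and 8 of 549 under other settings lost the call, and 0 reversed. The replicate block changed no count of calls (2 and 3 in PEO1 BRCA+, 5 and 5 in PEO4). The labels do not say whether same-numbered libraries have a common origin. Of 48 pairs, 1 had a correlation of deviations over 0.1 (-0.158 to 0.134), which cannot settle it. Counts of EDA2R in untreated PEO1 BRCA+ and of SPATA18 in PEO4 did not exceed 3 in any library.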
